A study of Mus musculus with 8 samples.

Results

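The detoxification and glutathione genes described here are 45 genes chosen by name: glutathione transferases and peroxidases, the enzymes of glutathione synthesis, the thioredoxin system, Nrf2 with its inhibitor, and the reductases, dehydrogenases, cytochromes P450, epoxide hydrolases, sulfotransferase and efflux pumps that act on foreign compounds. Of the 45, 43 have an annotated probe (80 probes in all), and 39 passed the detection filter among 9062 tested genes. Gsr and Prdx6 have no named probe here. Gstm3, Akr1c13, Sult1b1 and Abcg2 have probes but stayed below the filter, with at most 2 arrays on which any of their probes was detected. Of the 39 tested genes, 37 were detected on all 8 arrays, and the other two, Gclc and Ephx2, were detected on arrays of both groups.

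Expression was measured on Illumina mouse bead arrays in intestinal organoids, which are epithelial cultures grown from mice of 3-4 months on a C57Bl background. Of the 8 samples, 4 had been given TGF-beta (3 ng/ml, over 18 h) and 4 were untreated. The villus gene Vil1 and the intestinal factor Cdx2 were detected on all 8 arrays. Both groups carried mutated Apc, a brake on Wnt signalling, both had received tamoxifen, and both were then kept in medium without growth factors. The comparison asks how Apc-mutated epithelium responds to TGF-beta. The labels do not say whether the 4 samples of a group came from separate cultures or animals, so p-values measure only the spread between these samples, and samples without the Apc mutation were not analysed here.

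Glutathione is the main small thiol of the cell, and the transferases join it to reactive foreign compounds so that efflux pumps can export them. The transcription factor Nrf2, encoded by Nfe2l2, switches on many of these genes. Keap1 holds Nrf2 in the cytoplasm for degradation until oxidants or electrophiles modify it. In the intestine the P450 enzymes, carboxylesterases and alcohol dehydrogenases are mainly made by absorptive cells and act on compounds from the diet.

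Values are normalized log2 intensities, and differences are TGF-beta minus untreated, tested with limma over all 15573 tested probes with Benjamini-Hochberg adjustment and a threshold of 0.05. A level says nothing about the abundance of a gene against that of another gene, because probes differ in brightness. Between 14554 and 16626 probes were detected per array. Of all tested genes, 19.4% passed the threshold, 9.57% higher and 9.88% lower with TGF-beta (867 and 895 genes). Median scaling in place of quantile normalization gave 495 higher and 941 lower and moved the median difference of all genes to -0.18, against -0.05, with the members' median at -0.57, against -0.40.

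Samples of the same number deviated together in both groups (correlations of 0.51 to 0.55 across probes), and replicates 2 and 3 differed from replicates 1 and 4 in both groups. The X-inactivation transcript Xist lay between 9.30 and 10.18 in replicates 2 and 3 and between 4.45 and 4.69 in replicates 1 and 4. The Y-linked Eif2s3y lay between 4.42 and 4.72 in replicates 2 and 3 and between 8.20 and 8.48 in replicates 1 and 4. The labels do not mention this division. Samples of unlike number within a set were not correlated, so the correlations do not show pairing by number beyond the division. Each set holds 2 samples of each group, and values with the replicate number as a block are given wherever they change a call.

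Detoxification genes were lower more often than higher with TGF-beta. Of the 39 tested, 8 fell (20.5%, against 9.88% of all genes) and 2 rose (5.13%, against 9.57%), and 29 did not pass. By limma's p before adjustment, 12 lay under 0.05 on the lower side (30.8%, against 18% of all genes) and 2 on the higher side (5.13%, against 14.9%). The median difference of the 39 was -0.40 against -0.05 for all genes, and 27 of the 39 were below 0. With the replicate number as a block, 17 fell and 5 rose, where 17.3% of all genes fell and 14.4% rose. The TGF-beta and untreated values did not overlap for 10 of the 39 (25.6%), close to the 24.8% of all tested genes. The 8 that fell without the block were Akr1c19, Gstm1, Gsta3, Ephx1, Gsta1, Adh5, Gstp1 and Keap1, and those that rose were Gpx1 and Mgst3.

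**Figure D1:**
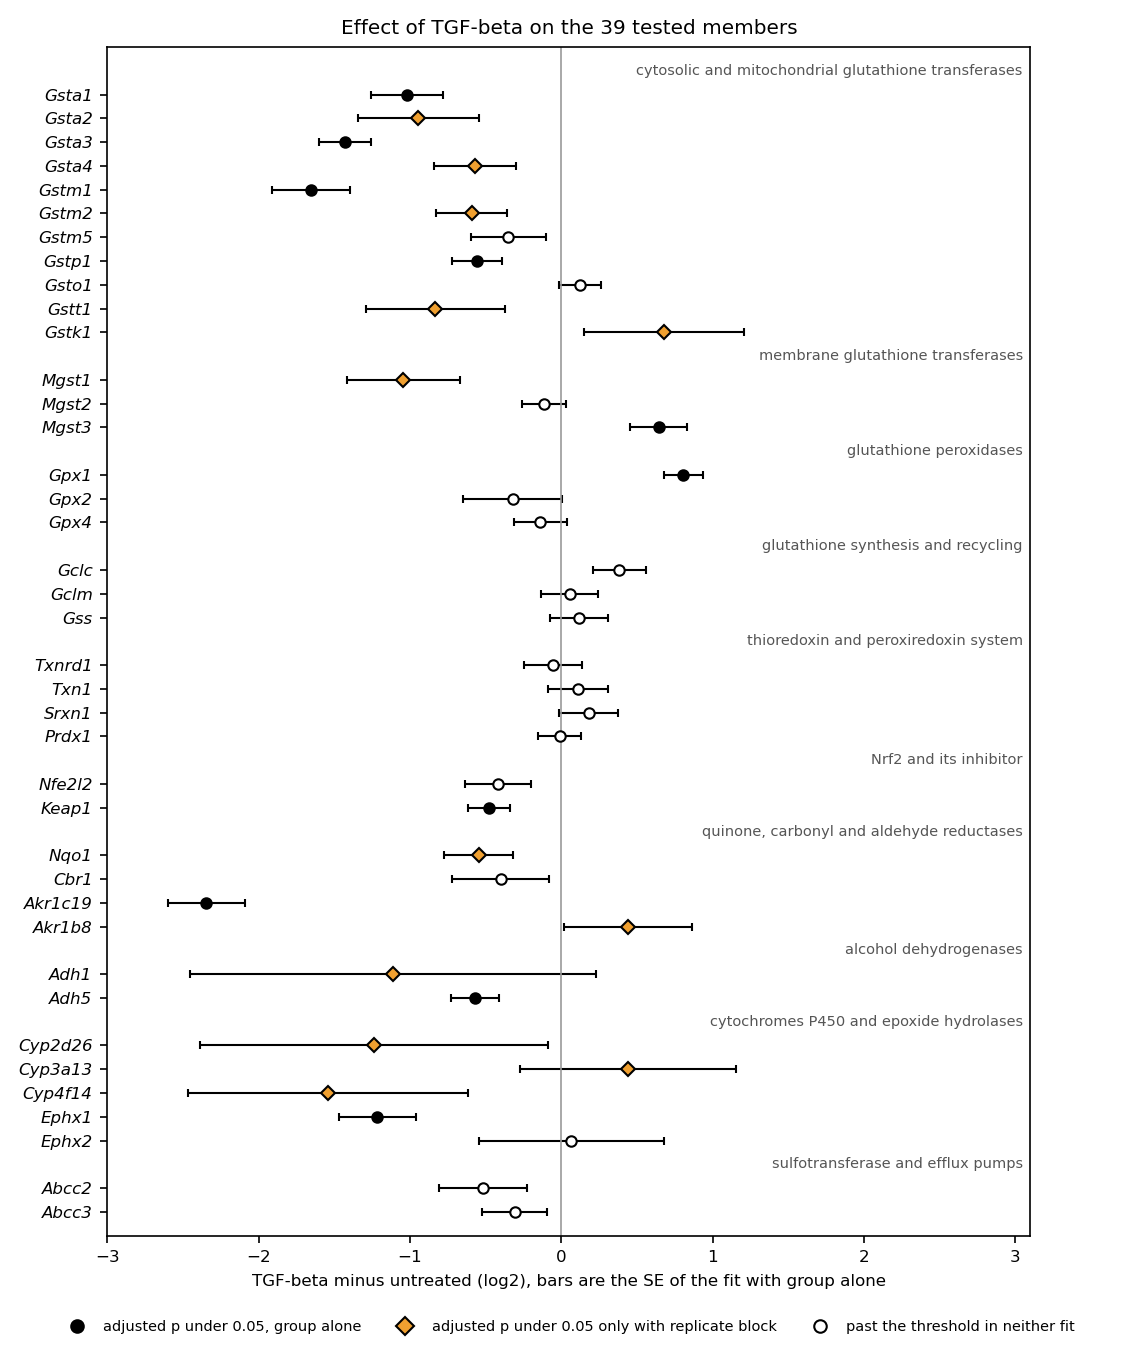
TGF-beta minus untreated (log2) for the 39 tested genes, grouped by role, with the SE of the fit with group alone. Black circles passed the threshold in that fit, orange diamonds passed only with the replicate number as a block, and open circles passed in neither; Akr1c19 at -2.34 is the lowest and Gpx1 at 0.81 the highest.

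The cytosolic glutathione transferases held the largest group of falls. Of the 11 tested, Gstk1 included, 4 fell and 0 rose without the block, with a median difference of -0.59. The share that fell was 36.4%, against 9.88% of all genes. Before adjustment, 6 fell (54.5%) and 0 rose at p under 0.05 in limma, against 18% and 14.9% of all genes. Gstm1, a mu-class transferase on chromosome 3, read 8.60, 8.76, 8.92 and 8.54 in TGF-beta samples, against 10.02, 10.96, 10.73 and 9.73 in untreated samples. The groups were far from overlapping, and untreated replicates 2 and 3 were the highest. Its level was 3.15-fold lower with TGF-beta (difference -1.66, SE 0.257, adjusted p = 0.0019 by limma).

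Gsta3, an alpha-class transferase on chromosome 1, read 9.68, 9.37, 9.93 and 9.78 in TGF-beta samples, against 10.84, 11.37, 11.27 and 11.003 in untreated samples. The lowest untreated sample stood well above the highest TGF-beta sample, and the fall was 2.69-fold (-1.43, SE 0.173, adjusted p = 0.00046 by limma). Gsta1, on chromosome 9, read 10.20, 10.56, 10.53 and 10.85 in TGF-beta samples, against 10.99, 11.94, 11.98 and 11.32 in untreated samples. Here the groups came close, with untreated replicate 1 only just above TGF-beta replicate 4. It fell 2.03-fold (-1.02, SE 0.240, adjusted p = 0.015 by limma). The other tested probes of Gsta1 gave -1.07 (adjusted p = 0.136) and -0.98 (adjusted p = 0.085) in limma, and Gsta1 also missed the threshold when its probes were averaged (adjusted p = 0.061) and within replicates 1 and 4 alone (-0.63, adjusted p = 0.133).

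Gstp1, the pi-class transferase of chromosome 19, read 11.51, 11.47, 11.95 and 11.99 in TGF-beta samples, against 12.20, 12.16, 12.40 and 12.40 in untreated samples. The gap between the groups was small beside their range, and the fall was 1.47-fold (-0.56, SE 0.164, adjusted p = 0.041 by limma). A second probe fell by 0.76 (adjusted p = 0.013), while the dimmest probe, detected on 2 arrays of each group, gave +0.12 (adjusted p = 0.763). The call on Gstp1 was lost without TGF-beta replicates 1 or 2 or any of the 4 untreated replicates (limma, adjusted p from 0.062 to 0.101), and under median scaling and cyclic loess. Its near-identical neighbour Gstp2 moved alike, as given further down. The probe sequences were not used here, so signal from close copies cannot be told apart within the Gstp, Gsta, Gstm and Akr1c families.

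The remaining cytosolic transferases did not pass without the block. Gsta2 (-0.94, adjusted p = 0.136), Gstt1 (-0.83, 0.253), Gstm2 (-0.59, 0.116) and Gsta4 (-0.57, 0.184) were lower in all 4 numbered pairs. With the replicate block their adjusted p in limma was 0.0021, 0.0052, 0.0073 and 0.013. Gstm2 also passed without TGF-beta replicate 2 (adjusted p = 0.045). Gstm5 gave -0.35 (adjusted p = 0.385) and Gsto1, the omega-class member, +0.12 (adjusted p = 0.610), and neither passed with the block. Gstk1, a kappa-class transferase of mitochondria and peroxisomes, went the other way. Its value was +0.68 (adjusted p = 0.431, and 0.037 with the replicate block), higher in 4 of 4 pairs.

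The 3 membrane-bound transferases did not share a direction. Mgst3 read 11.36, 11.61, 11.49 and 11.52 in TGF-beta samples, against 10.53, 11.23, 11.11 and 10.53 in untreated samples. Every TGF-beta sample lay above every untreated sample, with untreated replicates 2 and 3 nearest. It rose 1.56-fold (+0.64, SE 0.187, adjusted p = 0.038 by limma), and a second probe rose by 0.88 (adjusted p = 0.015). The call on Mgst3 was lost when any single TGF-beta sample, or untreated replicate 1 or 4, was left out (adjusted p from 0.054 to 0.107), and under median scaling.

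Mgst1 read 8.59, 9.98, 9.91 and 8.51 in TGF-beta samples, against 9.86, 10.60, 10.78 and 9.92 in untreated samples. Replicates 2 and 3 were the higher ones in each group, and the groups overlapped, while within each set of replicates they did not. Its difference was -1.04 (SE 0.374, adjusted p = 0.082 by limma, and 0.0012 with the replicate block), a dimmer probe fell by 1.38 (adjusted p = 0.027), and without TGF-beta replicate 2 the brighter probe passed (adjusted p = 0.044). Mgst2 gave -0.12 (adjusted p = 0.650), with 2 pairs higher and 2 lower.

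Among the glutathione peroxidases, which use glutathione to reduce peroxides, Gpx1 rose. It read 13.64, 13.90, 13.91 and 13.86 in TGF-beta samples, against 13.03, 13.10, 12.98 and 12.96 in untreated samples. Both groups were tight and clearly apart, and the level was 1.75-fold higher with TGF-beta (+0.81, SE 0.127, adjusted p = 0.0021 by limma). Gpx2, the peroxidase typical of gut epithelium, gave -0.32 (SE 0.326, adjusted p = 0.560), with 13.34, 12.51, 12.96 and 13.38 in TGF-beta samples and 13.77, 12.54, 13.09 and 14.08 in untreated samples. It was the lower of each pair in TGF-beta samples, by little in replicates 2 and 3. Gpx4, which protects membrane lipids, gave -0.14 (adjusted p = 0.649).

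**Figure D2:**
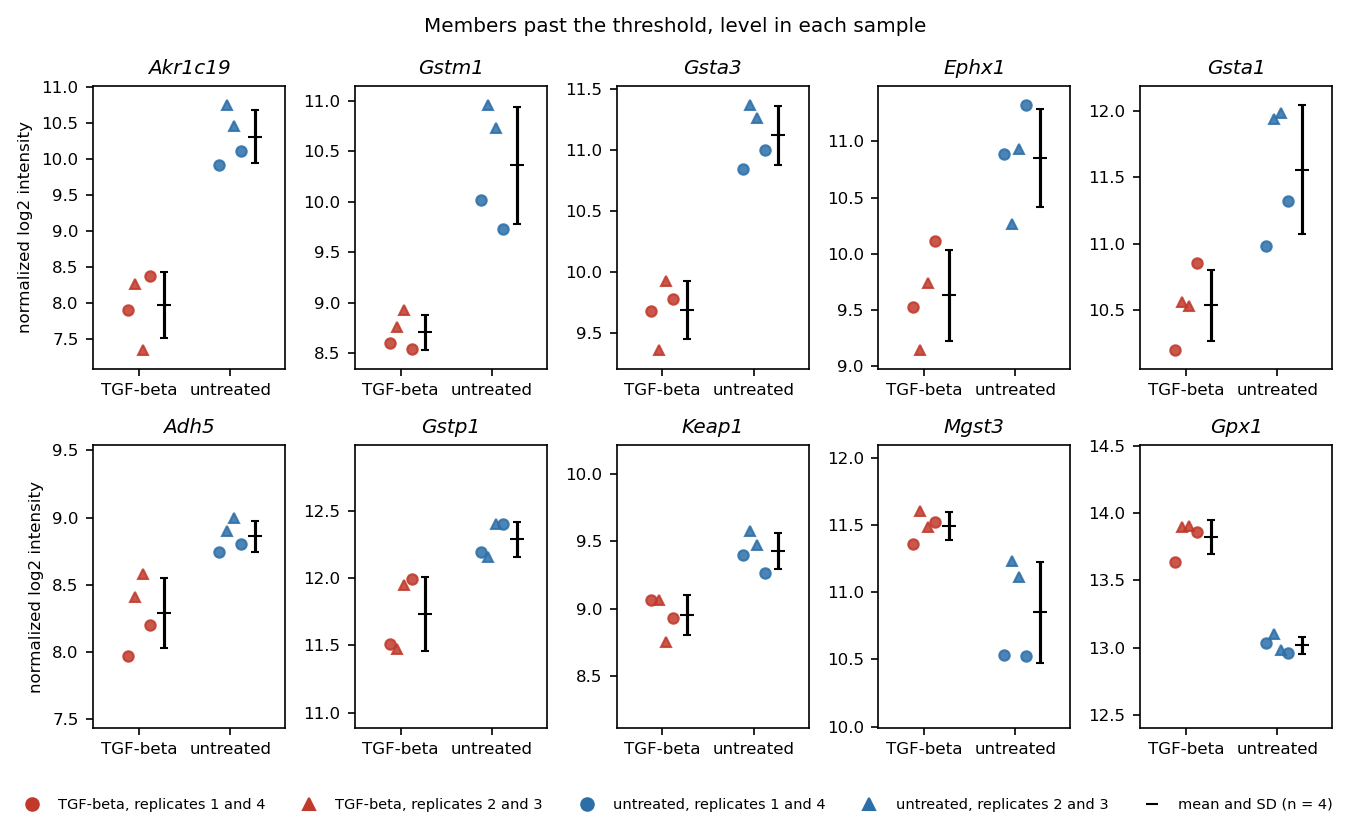
Normalized log2 intensity in each sample for the 10 genes past the threshold, ordered from the largest fall (Akr1c19) to the largest rise (Gpx1), with the scale of the y axis set for each gene. TGF-beta samples are in red and untreated samples in blue, circles are replicates 1 and 4, triangles are replicates 2 and 3, and black bars are the mean and SD of 4; in none of the 10 do the groups overlap.

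The enzymes that make glutathione did not pass the threshold in either direction. Gclc, the catalytic subunit of the rate-limiting ligase, read 5.85, 5.81, 5.75 and 5.72 in TGF-beta samples, against 5.56, 4.98, 5.30 and 5.77 in untreated samples, 3 of them detected. Its difference was +0.38 (SE 0.176, adjusted p = 0.169 by limma), and the signal sat near the lowest detected signals of 5.04 to 5.23. Gclm, its modifier subunit, gave +0.05 (SE 0.190, adjusted p = 0.884), with all TGF-beta samples between 9.92 and 10.07 inside the untreated range of 9.54 to 10.39. Glutathione synthetase, Gss, gave +0.12 (SE 0.190, adjusted p = 0.733), and its other tested probes gave -0.41 to +0.10 without passing.

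The thioredoxin system, which reduces oxidised proteins and peroxides, also had 0 of 4 tested genes past the threshold (limma, 0 at an unadjusted p under 0.05 in either direction, and 0 with the replicate block). Txnrd1, thioredoxin reductase, gave -0.05 (SE 0.190), thioredoxin Txn1 +0.11 (SE 0.198), sulfiredoxin Srxn1 +0.18 (SE 0.196) and peroxiredoxin Prdx1 -0.01 (SE 0.141), with adjusted p from 0.589 to 0.975. Prdx1 was even, at 13.60, 13.29, 13.15 and 13.47 in TGF-beta samples and 13.51, 13.34, 13.34 and 13.38 in untreated samples. The groups of all 4 genes overlapped. A miss of the threshold does not show that levels were equal.

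Nqo1, a quinone reductase widely used as a readout of Nrf2 activity, read 6.73, 6.44, 6.52 and 7.07 in TGF-beta samples, against 7.25, 7.02, 6.84 and 7.84 in untreated samples. TGF-beta was the lower of every pair, while the groups overlapped. The difference was -0.54 (SE 0.229, adjusted p = 0.134 by limma, and 0.012 with the replicate block). Nfe2l2 itself read 8.38, 8.26, 8.24 and 8.57 in TGF-beta samples, against 8.52, 8.29, 9.03 and 9.29 in untreated samples. Untreated replicates 3 and 4 stood apart from the other samples, and the difference was -0.42 (SE 0.217, adjusted p = 0.225, and 0.084 with the block).

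Keap1 read 9.06, 9.07, 8.75 and 8.93 in TGF-beta samples, against 9.40, 9.58, 9.47 and 9.26 in untreated samples. The groups did not overlap, and the fall was 1.39-fold (-0.48, SE 0.138, adjusted p = 0.038 by limma). Its other 3 tested probes gave -0.18 to -0.32 and did not pass (adjusted p from 0.183 to 0.460). The call on Keap1 was lost without TGF-beta replicates 1, 3 or 4 or untreated replicates 1, 2 or 3 (adjusted p from 0.051 to 0.105), under cyclic loess and when its probes were averaged.

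Promoter sequences from RefSeq (GRCm38.p6) were matched to 39 of the 45 genes, as 53 windows of 300 bases from 250 before to 50 after an annotated start. The core of the antioxidant response element that Nrf2 binds, searched as TGACNNNGC on both strands, lay in a window of 11 of the 39 (28.2%), against 3781 of the 27025 genes in the table. A match describes the letters and is no evidence of binding. Of the 8 genes that fell, 2 held the core (Gsta3 and Akr1c19), as did 0 of the 2 that rose and 9 of the 25 matched genes that did not pass. The AP-1 site, searched as TGANTCA on both strands, lay in windows of 7 of the 39 (17.9%), against 8.97% of those 27025 genes. The core in Prdx1 contains an AP-1 site, so the matches are not independent. The stretches that follow are shown because they hold these letters in genes with unlike values: the fallen Gsta3, Akr1c19 and Gstp1, and Gclm, Prdx1, Txnrd1 and Srxn1, which did not pass. Matches are in capitals, each sequence runs 5′ to 3′ on the strand of its gene, and positions are counted from the annotated start.
Gsta3, chr1:21240435-21240534, plus strand, bases -150 to -51: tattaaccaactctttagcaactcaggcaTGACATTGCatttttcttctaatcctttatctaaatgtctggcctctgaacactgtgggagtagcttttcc
Akr1c19, chr13:4233730-4233757, plus strand, bases -10 to 18: caggagcagcagaacttGCTTAGTCAga
Gstp1, chr19:4037933-4038032, minus strand, bases -120 to -21: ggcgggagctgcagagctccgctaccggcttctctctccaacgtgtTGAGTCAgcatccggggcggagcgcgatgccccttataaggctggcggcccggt
Gclm, chr3:122245387-122245486, plus strand, bases -170 to -71: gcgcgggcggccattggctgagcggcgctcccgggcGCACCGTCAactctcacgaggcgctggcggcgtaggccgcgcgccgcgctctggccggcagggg
Prdx1, chr4:116685449-116685548, plus strand, bases -150 to -51: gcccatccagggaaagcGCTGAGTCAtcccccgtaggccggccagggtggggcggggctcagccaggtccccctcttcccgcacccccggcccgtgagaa
Txnrd1, chr10:82859066-82859165, plus strand, bases -140 to -41: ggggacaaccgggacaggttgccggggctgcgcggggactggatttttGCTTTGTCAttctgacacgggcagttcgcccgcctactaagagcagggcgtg
Srxn1, chr2:152105394-152105493, plus strand, bases -130 to -31: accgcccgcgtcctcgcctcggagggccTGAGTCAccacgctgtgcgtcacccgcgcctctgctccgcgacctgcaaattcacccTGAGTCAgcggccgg

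Other genes known as Nrf2 targets or partners, from a list of 26 with 21 tested, included 5 that rose and 1 that fell. These shares were 23.8% and 4.76%, against 9.57% and 9.88% of all genes. Of the 21, 11 differences were above 0 and 10 below, with a median of +0.03. With the replicate block 5 rose and 3 fell, where 14.4% of all genes rose and 17.3% fell. Blvrb, which reduces biliverdin and flavins, read 11.18, 11.05, 11.54 and 11.33 in TGF-beta samples, against 8.56, 8.80, 8.80 and 8.70 in untreated samples. No gene of the 45 moved as far upward: it was 5.90-fold higher (+2.56, SE 0.147, adjusted p = 6.4e-06 by limma). The autophagy receptor Sqstm1 (+1.01, adjusted p = 0.0026), Trim16 (+1.18, 0.0037) and the malic enzyme Me1 (+0.60, 0.0098) rose as well. The call on Me1 was lost under median scaling (adjusted p = 0.205) and within replicates 2 and 3 alone (0.084). Hmox1, which makes biliverdin from heme, read 6.73, 6.63, 6.97 and 7.82 in TGF-beta samples and 5.95, 4.64, 5.63 and 6.64 in untreated samples. It was detected on 3 untreated arrays, and untreated replicate 2 lay below the lowest detected signals, so the size of its difference is not firm. Untreated replicate 4 reached into the TGF-beta range, and the rise (+1.32, SE 0.395, adjusted p = 0.043 by limma) was lost when any sample other than untreated replicate 4 was left out (adjusted p from 0.050 to 0.103). Aldh1a7 fell by 1.13 (adjusted p = 0.0098).

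**Figure D3:**
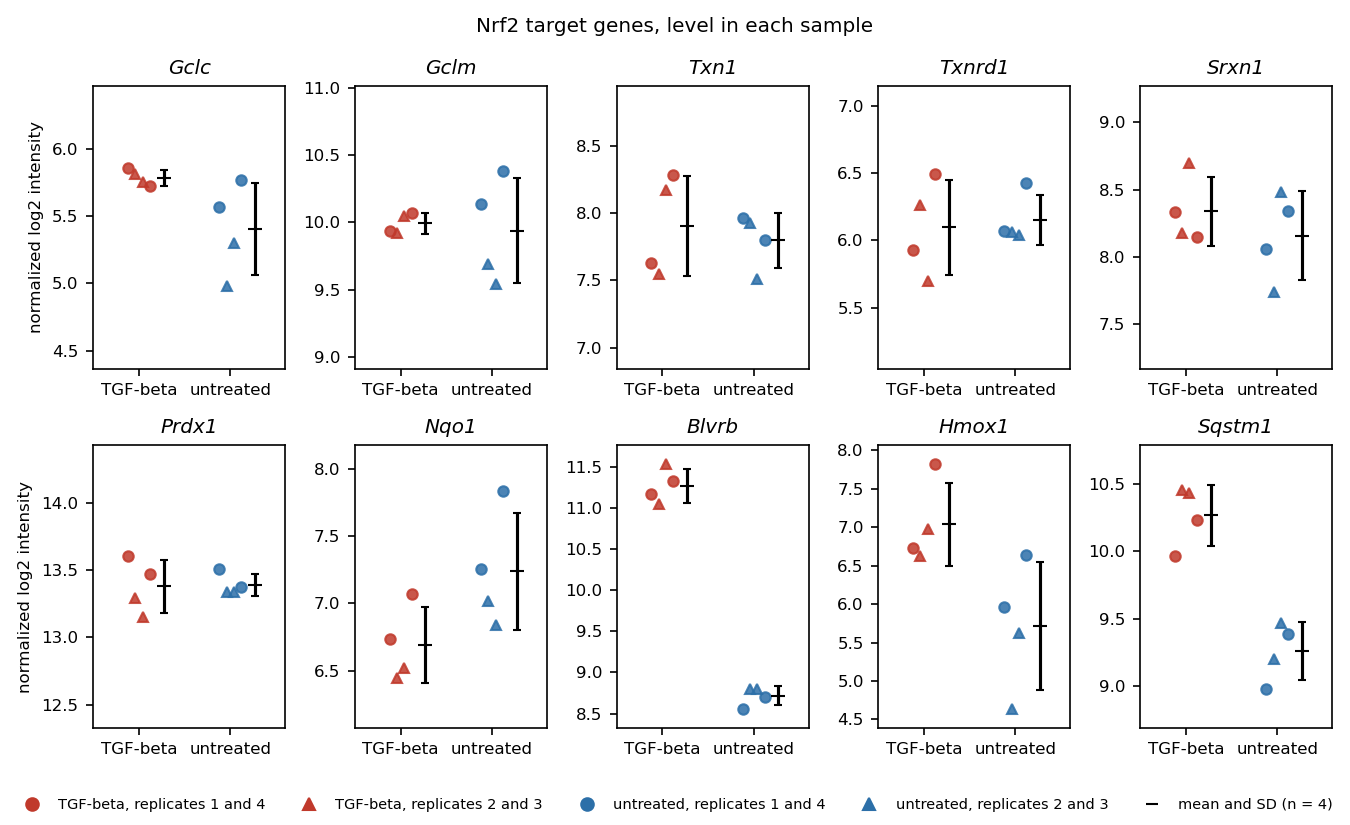
Normalized log2 intensity in each sample for 10 genes known as Nrf2 targets, 7 of the 45 (Gclc, Gclm, Txn1, Txnrd1, Srxn1, Prdx1 and Nqo1) and 3 from the additional list (Blvrb, Hmox1 and Sqstm1), with the y axis set for each gene. These 3 are among the 5 genes of that list that rose and do not stand for it. Of its 21 tested genes, 11 differences lay above 0 and 10 below. TGF-beta samples are in red and untreated samples in blue; the groups overlap in the first 7 and in Hmox1 and lie apart in Blvrb and Sqstm1.

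The reductases of carbonyls and aldehydes held the largest single fall. Akr1c19, an aldo-keto reductase on chromosome 13, read 7.90, 8.26, 7.35 and 8.37 in TGF-beta samples, against 9.93, 10.76, 10.47 and 10.11 in untreated samples. The highest TGF-beta sample was well below the lowest untreated one. The level was 5.08-fold lower with TGF-beta (-2.34, SE 0.253, adjusted p = 0.00024 by limma). Within replicates 1 and 4 the difference was -1.88, and within replicates 2 and 3 it was -2.81. Akr1c19 has 1 annotated probe, and signal from other Akr1c genes cannot be told apart from its own. Akr1b8, an aldo-keto reductase of another subfamily, gave +0.44 (SE 0.423, adjusted p = 0.537, and 0.039 with the replicate block), and was higher in 4 of 4 pairs. With the set of replicates as a block in place of the number, Akr1b8 missed the threshold (adjusted p = 0.055). Carbonyl reductase Cbr1 gave -0.40 (adjusted p = 0.440), and passed within replicates 2 and 3 alone (-0.88, adjusted p = 0.049), beside +0.08 within replicates 1 and 4.

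Of the alcohol dehydrogenases, Adh5 fell and Adh1 passed only with the block. Adh5, the ubiquitous class III enzyme that oxidises a glutathione adduct of formaldehyde, read 7.97, 8.41, 8.58 and 8.20 in TGF-beta samples, against 8.74, 8.90, 8.9998 and 8.80 in untreated samples. The groups were separate, and it fell 1.48-fold (-0.57, SE 0.159, adjusted p = 0.032 by limma). The call was lost without TGF-beta replicates 1 or 4 or any single untreated replicate (adjusted p from 0.055 to 0.087).

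Ephx1, microsomal epoxide hydrolase, read 9.53, 9.15, 9.74 and 10.11 in TGF-beta samples, against 10.88, 10.26, 10.93 and 11.32 in untreated samples. TGF-beta replicate 4 and untreated replicate 2 were the nearest pair and still did not overlap. It fell 2.32-fold (-1.22, SE 0.255, adjusted p = 0.0088 by limma). The soluble hydrolase Ephx2 gave +0.07 (SE 0.609, adjusted p = 0.958) and was detected on 3 TGF-beta and 2 untreated arrays.

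Several of the 45 genes differed more between the sets of replicates than between the treatments. Of the 39, 8 were over 1 log2 unit higher in replicates 2 and 3 than in replicates 1 and 4 (20.5%, against 2.73% of all genes) and 1 was over 1 unit lower (2.56%, against 1.77%). No test is given, because the division was seen in these data. The higher ones were Adh1 (by 4.28), Cyp2d26 (3.66), Cyp4f14 (2.91), Cyp3a13 (2.25), Ephx2 (1.86), Gstk1 (1.55), Gstt1 (1.35) and Mgst1 (1.10), and the lower one was Akr1b8 (-1.25).

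Adh1, which oxidises ethanol and retinol, read 6.96, 11.04, 10.74 and 6.21 in TGF-beta samples, against 7.63, 11.88, 12.05 and 7.81 in untreated samples. Replicates 2 and 3 stood far above the others in both groups, and within each set the TGF-beta samples were lower. Its difference was -1.11 (SE 1.341, adjusted p = 0.634 by limma with group alone), and with the replicate block it fell (SE 0.170, adjusted p = 0.0013). Without a single sample the estimate lay anywhere from -1.88 to -0.27, since an unequal number of each set is then compared.

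Cyp4f14, a P450 that hydroxylates fatty acids and leukotrienes, read 8.06, 11.46, 10.92 and 7.88 in TGF-beta samples, against 9.58, 12.32, 12.52 and 10.06 in untreated samples. It gave -1.54 (SE 0.924, adjusted p = 0.296 by limma, and 0.00046 with the block), -1.85 within replicates 1 and 4 and -1.23 within replicates 2 and 3. Cyp2d26 read 5.13, 8.94, 8.48 and 5.26 in TGF-beta samples, against 6.24, 10.08, 10.10 and 6.34 in untreated samples. In TGF-beta replicates 1 and 4 it sat near the lowest detected signals, while untreated replicates 1 and 4 lay above them. Its difference was -1.24 (SE 1.148, adjusted p = 0.519 by limma, and 0.00025 with the block). Within each set, every TGF-beta value of both genes lay below every untreated value.

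Cyp3a13, a member of the CYP3A family that oxidises many drugs, moved the other way. It read 8.86, 11.11, 10.71 and 8.69 in TGF-beta samples, against 8.12, 10.60, 10.57 and 8.32 in untreated samples. It gave +0.44 (SE 0.715, adjusted p = 0.735 by limma, and 0.040 with the block), was higher in 4 of 4 pairs, and did not pass within either set alone. A second probe gave +0.62 (adjusted p = 0.644 by limma), higher in 4 of 4 pairs. The dimmest probe gave +0.14 (adjusted p = 0.906), with 1 pair higher and 3 lower. The efflux pumps Abcc2 (-0.52, adjusted p = 0.261) and Abcc3 (-0.31, adjusted p = 0.378) did not pass, with or without the block. Within a single set, Abcc2 passed in replicates 2 and 3 (-0.86, adjusted p = 0.042) and Abcc3 in replicates 1 and 4 (-0.65, adjusted p = 0.040).

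**Figure D4:**
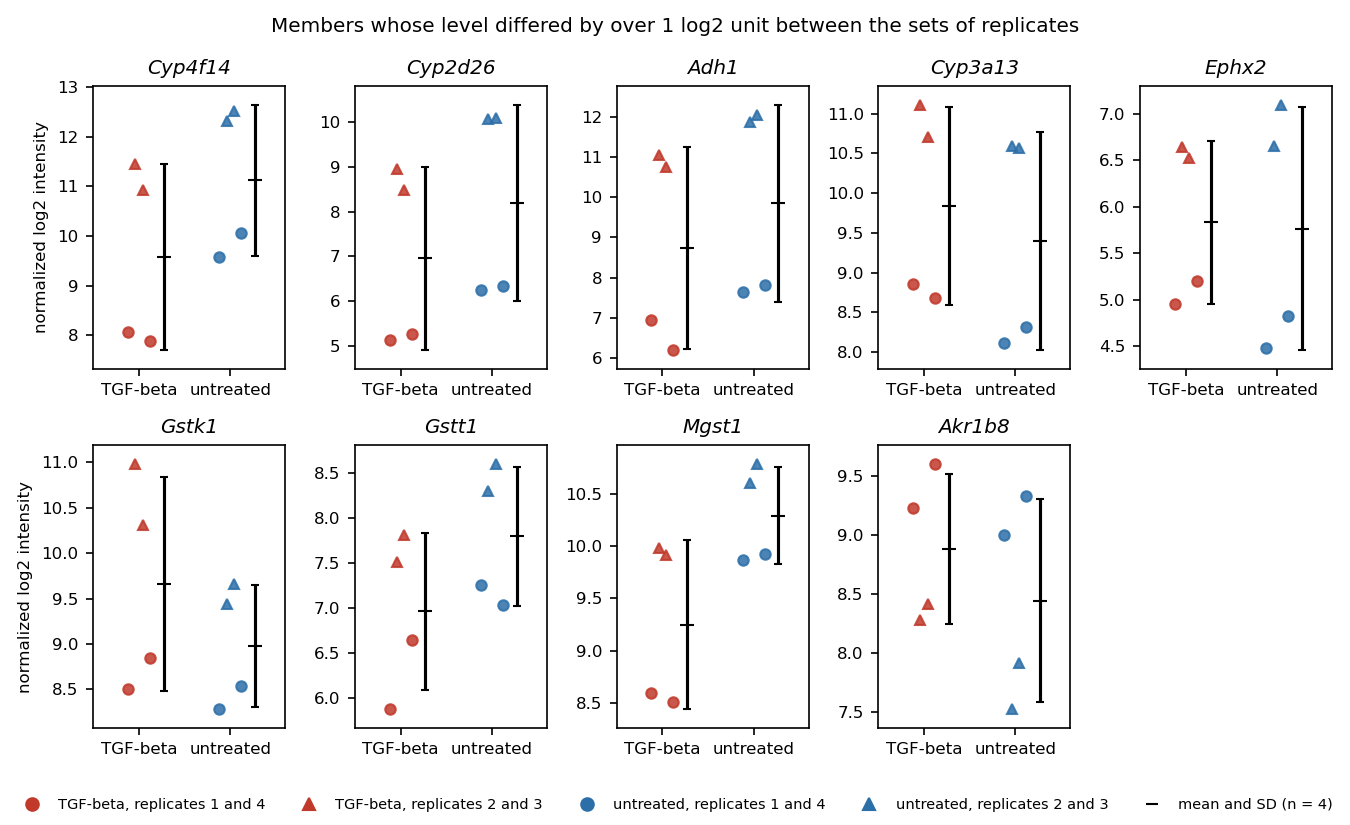
Normalized log2 intensity in each sample for the 9 genes whose level differed by over 1 log2 unit between the sets of replicates, with the y axis set for each gene. Triangles (replicates 2 and 3) lie above circles (replicates 1 and 4) in both groups for 8 of them and below for Akr1b8, and the SD bars of the groups are wide because each group holds both sets.

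The effect of TGF-beta itself did not pass a test of difference between the sets for any of the 39 genes (limma interaction, lowest adjusted p = 0.395, 0.011% of all genes past it). Before adjustment, 9 of the 39 (23.1%) lay under 0.05, against 10.1% of all genes. Cell type markers differed along both divisions. The summed level of the enterocyte markers (15 of 17 with a named probe, 12 detected on at least 4 arrays, Fabp1 and Fabp2 on none) lay between 14.10 and 14.91 in replicates 2 and 3 and between 12.06 and 12.60 in replicates 1 and 4. By treatment it lay between 12.57 and 14.91 in TGF-beta samples and between 12.06 and 14.48 in untreated samples. Of the 12 enterocyte markers tested, 2 rose and 1 fell (16.7% and 8.33%, against 9.57% and 9.88% of all genes). Their differences ran from -2.28 to +3.88, 7 below 0 and 5 above, with a median of -0.50. Goblet markers (8 of 8 named, 6 detected on at least 4 arrays, Fcgbp and Agr2 on none) lay between 12.06 and 13.08 in replicates 2 and 3 and between 10.19 and 11.45 in replicates 1 and 4. Stem cell markers, 7 of 7 detected on at least 4 arrays, lay between 13.21 and 13.74 in TGF-beta samples and between 13.78 and 14.35 in untreated samples. Of the 7, 5 fell (71.4%, against 9.88% of all genes). Enteroendocrine markers, 7 of 9 detected on at least 4 arrays, lay between 10.24 and 11.23 in TGF-beta samples and between 8.70 and 9.99 in untreated samples. Only 1 of these 7 rose (14.3%, against 9.57% of all genes) and 0 fell. Their differences ran from -0.04 to +4.80 with a median of +0.24, so the sum does not describe each marker. Of 10 fibroblast and muscle markers 7 were detected on no array, among them Col1a1, Col1a2 and Pdgfra, and Acta2 was the one detected on at least 4 (+0.70, adjusted p = 0.175 by limma). Their summed level lay between 8.13 and 8.39 in TGF-beta samples and between 7.98 and 8.10 in untreated samples. The part of these cell types in the results was not tested, and in such bulk samples fewer cells of a type and less RNA per cell cannot be told apart.

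**Figure D5:**
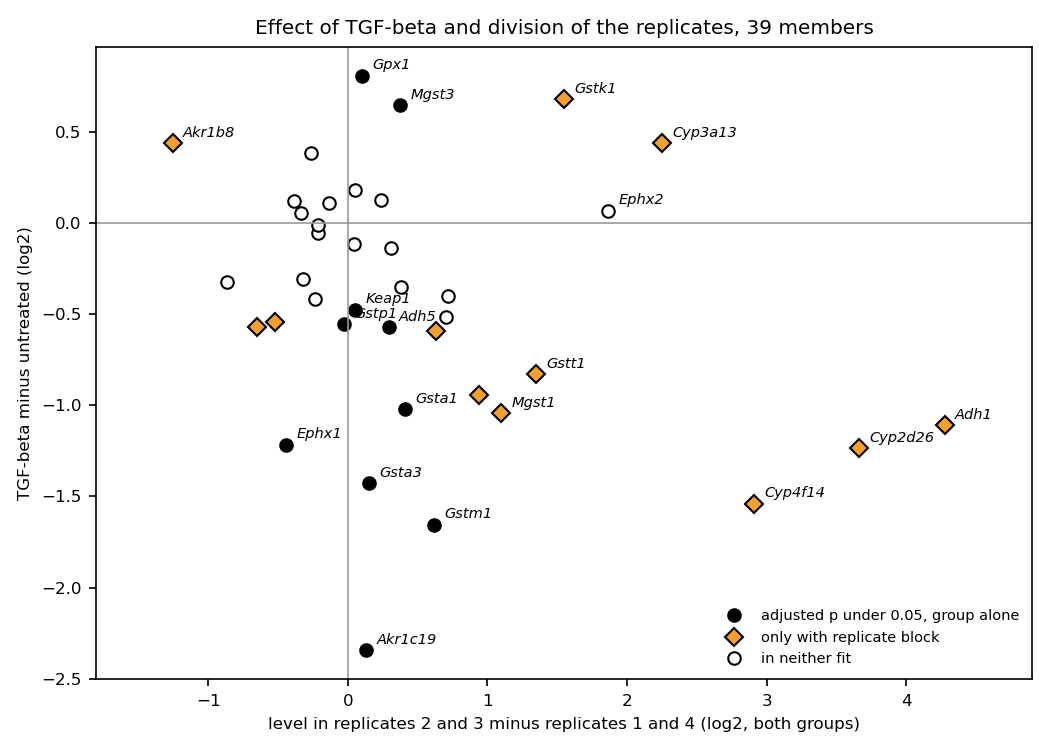
For the 39 tested genes, the difference TGF-beta minus untreated (y axis, log2) against the difference in level between replicates 2 and 3 and replicates 1 and 4 over both groups (x axis, log2). Genes past the threshold with group alone (black) lie near the zero of the x axis, with Gstm1 at 0.62 the farthest, while Adh1, Cyp2d26 and Cyp4f14 on the right passed only with the replicate block (orange). In the fit with group alone a difference between the sets widens the SE, so a gene far from that zero can hardly pass. For Adh1 the SE was 1.341 with group alone and 0.170 with the block.

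Of 23 further glutathione genes tested from a list of 30, 6 fell and 1 rose. These shares were 26.1% and 4.35%, against 9.88% and 9.57% of all genes. With the replicate block 9 fell and 1 rose, where 17.3% of all genes fell and 14.4% rose. Gpx3, the secreted peroxidase, was detected on all 4 TGF-beta arrays and on 1 untreated array, so it entered the test through the group where it is high. It read 6.49, 5.72, 6.08 and 6.67 in TGF-beta samples, against 5.23, 4.73, 4.69 and 4.86 in untreated samples, which lie at or below the lowest detected signals. It was higher with TGF-beta (adjusted p = 0.0024 by limma), and the size of the difference is not fixed by these values. The transferases Gstt3 (-0.89, adjusted p = 0.014), Gstp2 (-0.53, 0.021) and Gstz1 (-0.78, 0.024) fell. Gstp2 read 10.58, 10.64, 10.76 and 10.63 in TGF-beta samples, against 10.95, 11.27, 11.28 and 11.22 in untreated samples. Its call was lost without TGF-beta replicate 4 or untreated replicates 2, 3 or 4 (adjusted p from 0.050 to 0.062) and under median scaling, and that of Gstz1 without TGF-beta replicates 1 or 4 or untreated replicates 1, 2 or 3 (0.050 to 0.068). With some samples left out the list had as few as 1 falling gene.

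Of 14 further thioredoxin, peroxiredoxin and superoxide genes tested from a list of 20, 6 fell and 0 rose. The share that fell was 42.9%, against 9.88% of all genes. In limma 2 were higher at an unadjusted p under 0.05 (14.3%, against 14.9% of all genes). With the replicate block 6 fell and 1 rose, where 17.3% of all genes fell and 14.4% rose. The mitochondrial reductase Txnrd2 read 7.13, 7.27, 7.21 and 7.10 in TGF-beta samples, against 7.90, 7.96, 7.87 and 7.83 in untreated samples. It fell by 0.71 (SE 0.121, adjusted p = 0.0030), with groups tight and apart, beside the cytosolic Txnrd1 at -0.05. The superoxide dismutases Sod1 (-0.62, adjusted p = 0.0092) and Sod2 (-0.51, 0.029) and the sestrin Sesn1 (-0.77, 0.029) fell too. The calls on Sod2 and Sesn1 were lost in 6 and 5 of the 8 fits that left out a sample, and the list had 2 to 5 falling genes in them. For Sod2 these were the fits without TGF-beta replicates 1, 2 or 4 or untreated replicates 1, 2 or 4 (adjusted p from 0.050 to 0.087), with median scaling and cyclic loess besides, and for Sesn1 those without TGF-beta replicates 1, 3 or 4 or untreated replicates 2 or 3 (0.054 to 0.080).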

How the data were processed

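Per the file headers, the scanner table gives every probe (45281 in all) an intensity before normalization and a detection p-value on each of the 8 arrays; the sources used here do not state the scanner software. The authors' processed table was deposited without a stated method and is, from its values, on a log2 scale and quantile normalized. From the scanner intensities, background was removed by normexp using detection p, followed by an offset of 16, quantile normalization and log2 (limma 3.58.1, R 4.3.3). Probes entered the test if detected (p under 0.05) on 4 or more arrays. The platform annotation names 34885 probes with 1 symbol and 18 with several, and 10378 are unnamed here. A gene is its tested probe with the highest mean. The number of arrays limits the precision.

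Group alone was fitted over all 8 samples with lmFit and eBayes, two-sided. Samples of the same number deviated together (each of 4 correlations of deviations over 0.1). This does not show pairing by number, because samples of unlike number within a set were not correlated. The labels tie the numbers to nothing, so pairing within a set is uncertain. The 45 genes, the lists and the tests were chosen with earlier results of these data known. The rule named all 45 genes and up to 4 genes past the threshold per list, by adjusted p; Hmox1 and Aldh1a7 lie outside it and were named after their values were seen. On simulated data for TGF-beta against untreated with 200 of 15573 probes changed, 55% of log2 changes of 1 were recovered and 95% of log2 changes of 2, and 8 calls were false. The simulated samples were drawn independently, without the deviations that samples of the same number share in these data. Far fewer probes were changed than the 19.4% of genes that passed here, so these rates may not carry over. Promoter windows came from a RefSeq table, chromosomes from RefSeq by Entrez identifier. Alternatives were a replicate or set block, each set alone, other background correction, scaling, filters, variances and weights, the authors' table, averaged probes and leaving out each sample. Figures used matplotlib 3.10.9 in Python 3.11.15.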

Additional observations from a re-analysis of the deposited data

Results flagged for a closer look

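In 3 of 78 sets of 4 values (39 genes in 2 groups), 1 sample stood apart from the other 3 by a gap over Dixon's 95% critical share of the whole range, which chance exceeds in about 1 of 20 such sets. TGF-beta replicate 1 was low for Gpx1, at 13.64 against 13.86 for the next sample (gap 0.8292 of the range), and Gpx1 passed the threshold in all 21 other settings. TGF-beta replicate 3 was low for Gss, at 7.56 against 8.02 (gap 0.854). Untreated replicate 4 was high for Txnrd1, at 6.43 against 6.07 (gap 0.925).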

How the results depend on the processing

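The 39 genes were refitted in up to 21 other settings, 816 values in all. Of these, 731 kept their side of the threshold, 41 lost a call, 44 gained one and 0 had a sign opposite to a called value, while 31 uncalled values changed sign. Akr1c19, Gstm1, Gsta3, Ephx1 and Gpx1 passed in every setting, and the other 5 of the 10 did not. The cause of each change was not tested unless fewer samples or probes make it.

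The genes past the threshold numbered 2 higher and 8 lower. With the replicate block they numbered 5 higher and 17 lower, and with the set of replicates as a block 4 higher and 17 lower. Within replicates 2 and 3 alone 13 were lower. Median scaling, no detection filter and array weights each left 1 higher. Leaving out 1 sample gave 1 to 2 higher and 5 to 9 lower, with 5 lower without TGF-beta replicate 1 or untreated replicate 1, 2 or 3, and 1 higher without any single TGF-beta sample or untreated replicates 1 or 4. Over all genes, 867 were higher and 895 lower, against 1302 and 1566 with the replicate block, 1308 and 1580 with the set block and 495 higher under median scaling. The fits without a sample gave 572 to 805 lower genes, the fewest without untreated replicate 1. No interaction between set and treatment passed for the 39 genes in any of the 7 other settings in which it was fitted.

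Among the added lists, genes that fell ranged from 1 to 9 for further glutathione genes (6 in the reported fit, 9 with the replicate block), from 2 to 6 for thioredoxin and superoxide genes (6 and 6), from 4 to 16 for oxidoreductases (6 and 16), from 1 to 7 for conjugation enzymes (2 and 7), from 1 to 4 for Nrf2 targets (1 and 3) and from 1 to 3 for receptors (2 and 3). Those that rose ranged from 4 to 7 for Nrf2 targets (5 and 5), from 0 to 3 for glutathione genes (1 and 1), conjugation enzymes (2 and 3) and oxidoreductases (0 and 3), and from 0 to 1 for thioredoxin and superoxide genes (0 and 1). Probes near the lowest detected signals, such as Gclc and, in TGF-beta replicates 1 and 4, Cyp2d26, allow no firm size.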

Other observations

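Of 32 tested oxidoreductases from a list of 53, 6 fell and 0 rose, 18.8% lower against 9.88% of all genes. In limma 2 were higher at an unadjusted p under 0.05 (6.25%, against 14.9% of all genes). With the replicate block 16 fell and 3 rose, where 17.3% of all genes fell and 14.4% rose. The retinaldehyde dehydrogenase Aldh1a1 read 5.10, 6.20, 6.04 and 6.01 in TGF-beta samples, against 7.69, 7.75, 7.61 and 8.48 in untreated samples (-2.05, SE 0.270, adjusted p = 0.00079), detected on 3 TGF-beta arrays. Carbonyl reductase Cbr3 (-1.44, adjusted p = 0.0048), Cyp2b10 (-1.30, 0.0078) and Cyp2e1 (-1.38, 0.0090) fell too. Cyp2b10 missed the threshold within replicates 1 and 4 alone (adjusted p = 0.058).

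Of 19 tested conjugation enzymes, esterases and pumps from a list of 34, 2 fell and 2 rose (10.5% each way, near the 9.88% and 9.57% of all genes). With the replicate block 7 fell and 3 rose, where 17.3% of all genes fell and 14.4% rose. The carboxylesterase Ces2g read 7.19, 6.29, 6.89 and 7.01 in TGF-beta samples, against 8.88, 8.49, 8.68 and 9.02 in untreated samples, a 3.79-fold fall (SE 0.207 on the log2 scale, adjusted p = 0.00024 by limma). The glucuronosyltransferase Ugt2b34 fell by 1.36 (adjusted p = 0.0087), and the acetyltransferase Nat2 (+0.66, 0.014) and the efflux pump Abcc5 (+0.68, 0.020) rose. The call on Abcc5 was lost without TGF-beta replicates 3 or 4 or untreated replicate 2 (adjusted p from 0.051 to 0.057), and under median scaling and within either set of replicates alone (0.056 to 0.167). That on Nat2 was lost under median scaling and within replicates 1 and 4 alone (0.083 to 0.169). Of 10 tested receptors and intestinal factors from a list of 16, 2 fell and 0 rose. The share that fell was 20%, against 9.88% of all genes. With the replicate block 3 fell and 0 rose, where 17.3% of all genes fell and 14.4% rose. In limma 0 were higher at an unadjusted p under 0.05, against 14.9% of all genes. Cdx2, the homeobox factor of intestinal identity, fell by 1.04 (SE 0.161, adjusted p = 0.0019), and the bile acid receptor Nr1h4 by 1.18 (SE 0.321, adjusted p = 0.029). The call on Nr1h4 was lost without TGF-beta replicates 1 or 4 or untreated replicates 2 or 3 (adjusted p from 0.066 to 0.078).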
